A study of Mus musculus with 10 samples.

Results

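The Foxa family comprises 3 forkhead transcription factors, Foxa1, Foxa2 and Foxa3, and their expression was followed across populations sorted from differentiating mouse embryonic stem cells (mESCs). The 3 genes were found by stable Ensembl identifier with the symbol that GENCODE M21 gives them, and all 3 were present among the 38924 gene rows of every sample. The data are RNAseq read counts of 10 samples, all from the Foxa2-hCD4 mESC line, in which the Foxa2 locus also drives a cell surface reporter, a shortened form of human CD4 (hCD4), so that living cells can be sorted by Foxa2 expression. Whether the reporter allele leaves both Foxa2 copies intact is not given in the sources used here, and its part in the Foxa2 counts was not tested. The comparison of hCD4+ with hCD4- cardiac mesoderm (CM) asks how Foxa2-expressing progenitors differ from other CM, with endoderm and haematopoietic mesoderm as references.

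Foxa2+ CM (n = 3) and Foxa2- CM (n = 3) were Pdgfra+ Kdr+ cells, collected with or without hCD4 on day 5 of a cardiac differentiation with Activin A (8 ng per ml), BMP4 (1 ng per ml) and vascular endothelial growth factor (5 ng per ml). Flk1+ high mesoderm (n = 2), the haematopoietic mesoderm of the study, came from the same cardiac protocol and was sorted by Kdr, the protein that is also called Flk1. Foxa2+ endoderm (n = 2) came from a separate protocol with Activin A alone (75 ng per ml), also on day 5, and was sorted as hCD4+ cells without Pdgfra or Kdr. Protocol and population therefore cannot be told apart for endoderm. All samples carry the hCD4 reporter, come from 1 cell line, and have labels that do not say whether replicates were separate cultures, so p-values measure the spread between these samples. Because hCD4 was part of the gate, Foxa2 itself serves as a check of the labels, whereas Foxa1 and Foxa3 were not used by the sort.

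Foxa proteins bind DNA through a forkhead domain and are known as pioneer factors, able to engage closed chromatin before other factors arrive. Foxa2 acts first in the embryo, in the anterior primitive streak, node, notochord and definitive endoderm, downstream of Nodal signalling. Foxa1 and Foxa3 follow in the endoderm and its derivatives, where Foxa1 and Foxa2 share many functions in liver, lung and pancreas and Foxa3 is best known from the liver.

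The 3 genes lie on different chromosomes of the mm10 assembly, all on the minus strand. Foxa1 (ENSMUSG00000035451) spans chr12:57540628-57546916 with 2 annotated transcripts, Foxa2 (ENSMUSG00000037025) spans chr2:148042877-148046969 with 4, and Foxa3 (ENSMUSG00000040891) spans chr7:19013284-19023538 with 1. Their merged exons cover 3327, 2370 and 2037 bases, of which 1404, 1395 and 1059 are coding. None of the 3276, 2365 and 1988 windows of 50 bases, the read length, in their transcripts matched a transcript of another gene exactly, so reads of 1 member were not expected to be counted for another.

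The sequences just upstream of their RefSeq start sites (GRCm38.p6, the build of mm10) are shown because the 3 genes are compared side by side and differ in what these windows hold. Each is written 5′ to 3′ on the minus strand and ends 1 base before the start site, except that of Foxa1. The Foxa1 sequence was cut to 240 bases to leave out an annotated exon, so it ends further upstream. Distances are given from the start site in all cases. Capitals mark the letters TGTTTAC or TGTTTGT, searched on both strands as core forkhead sequences, or TATAAA, the TATA box. The letters AGATAA, known from binding of GATA factors, and TGTGGATT, known from that of Foxh1, were searched in the same way. The Foxa1 window (chr12:57546122-57546361) lies in the intron of the transcript Foxa1-202 and has GTAAACA, which is TGTTTAC on the other strand, 141 bases before the start. The outermost Foxa2 start (chr2:148046970-148047219) has TGTTTGT 173 bases before it, a second Foxa2 start (chr2:148045949-148046198) has none of these letters, and Foxa3 (chr7:19023540-19023789) has TATAAA 36 bases before its start and no forkhead match. The window of the third Foxa2 start (chr2:148045415-148045714), which is not printed, also has a TATA box match, on the other strand and 208 bases before the start, and the GATA letters lie 183 bases before it. The Foxh1 letters were in none of these windows.
Foxa1: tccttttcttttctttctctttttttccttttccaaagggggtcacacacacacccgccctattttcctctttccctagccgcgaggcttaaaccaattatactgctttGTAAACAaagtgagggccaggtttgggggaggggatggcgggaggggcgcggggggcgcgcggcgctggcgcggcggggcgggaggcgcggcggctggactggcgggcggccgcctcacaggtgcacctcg
Foxa2, outermost start: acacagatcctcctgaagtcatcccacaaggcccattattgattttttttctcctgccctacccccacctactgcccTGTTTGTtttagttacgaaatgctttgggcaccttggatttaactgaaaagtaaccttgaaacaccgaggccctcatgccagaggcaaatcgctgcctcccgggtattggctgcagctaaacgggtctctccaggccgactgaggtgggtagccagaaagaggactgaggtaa
Foxa2, second start: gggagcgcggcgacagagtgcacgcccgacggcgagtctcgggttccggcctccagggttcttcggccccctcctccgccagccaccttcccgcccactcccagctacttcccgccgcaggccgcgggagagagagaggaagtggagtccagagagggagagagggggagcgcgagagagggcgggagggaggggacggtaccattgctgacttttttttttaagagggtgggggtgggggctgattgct
Foxa3: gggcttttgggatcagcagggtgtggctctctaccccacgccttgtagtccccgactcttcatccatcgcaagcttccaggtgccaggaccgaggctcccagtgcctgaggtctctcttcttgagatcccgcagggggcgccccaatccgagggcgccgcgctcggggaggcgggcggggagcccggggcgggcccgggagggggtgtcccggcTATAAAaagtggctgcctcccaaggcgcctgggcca
Among 32851 RefSeq promoter windows of 300 bases, 3.65% held TGTTTAC, 6.61% held TGTTTGT, 13.6% held TATAAA, 11.2% held AGATAA and 0.855% held TGTGGATT on either strand. The forkhead and Foxh1 letters were thus less frequent than the TATA and GATA letters, which are shorter. The part of length in this order was not tested, and all such matches describe letters only. The windows also differ in base composition, with 62.5% G and C for Foxa1, 50.8% and 67.2% for the 2 Foxa2 starts shown and 68.8% for Foxa3.

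Sequencing depth was similar between samples, with 10926284 to 17470126 reads counted on genes per sample. Expression is given in CPM, the reads of a gene scaled to a common library size with TMM factors, and 3 counts, the level that a count of 0 cannot exclude, equal 0.169 to 0.279 CPM depending on the sample. Marker genes matched the labels in part. The 10 endoderm markers summed to 1419 and 1605 CPM in endoderm and to 144 to 232 CPM in the other samples, but Ttr and Afp, products of later or extraembryonic endoderm, averaged 1.06 and 0.460 CPM in endoderm. The endoderm samples also held the most signal of 6 pluripotency markers, at 375 and 384 CPM against 36.0 to 123 CPM elsewhere, and of 6 node and notochord markers, at 381 and 501 CPM against 84.0 to 216 CPM. The part of these other cell types in the endoderm values of the Foxa genes was not tested. The 9 haemato-endothelial markers summed to 1499 and 1711 CPM in Flk1+ high mesoderm, and within CM they were highest in the samples numbered 3, at 644 and 610 CPM for the hCD4+ and hCD4- sort, against 383 to 503 CPM in the other CM samples.

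Foxa2, the gene whose locus was used for the sort, followed the labels. In the Foxa2+ CM samples 274, 277 and 62 reads were counted, or 20.0, 16.0 and 3.49 CPM. In Foxa2- CM there were 41, 11 and 16 reads, or 2.54, 0.872 and 0.902 CPM. The groups did not overlap, but the third Foxa2+ CM sample lay far below the other two and its 95% Poisson interval (2.68 to 4.48 CPM) overlapped that of the first Foxa2- CM sample (1.82 to 3.44 CPM). Intervals of this kind cover counting error only.

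Both endoderm samples held far more Foxa2, with 1992 and 2184 reads, or 185 and 182 CPM. Flk1+ high mesoderm was lowest, with 11 and 10 reads, or 0.689 and 0.787 CPM. The order of the group means was therefore endoderm (184 ± 2.06 CPM, SD, n = 2), Foxa2+ CM (13.2 ± 8.62 CPM, n = 3), Foxa2- CM (1.44 ± 0.952 CPM, n = 3) and Flk1+ high mesoderm (0.738 ± 0.0688 CPM, n = 2). In bulk samples like these, fewer expressing cells and less RNA per cell cannot be told apart.

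**Figure D1:**
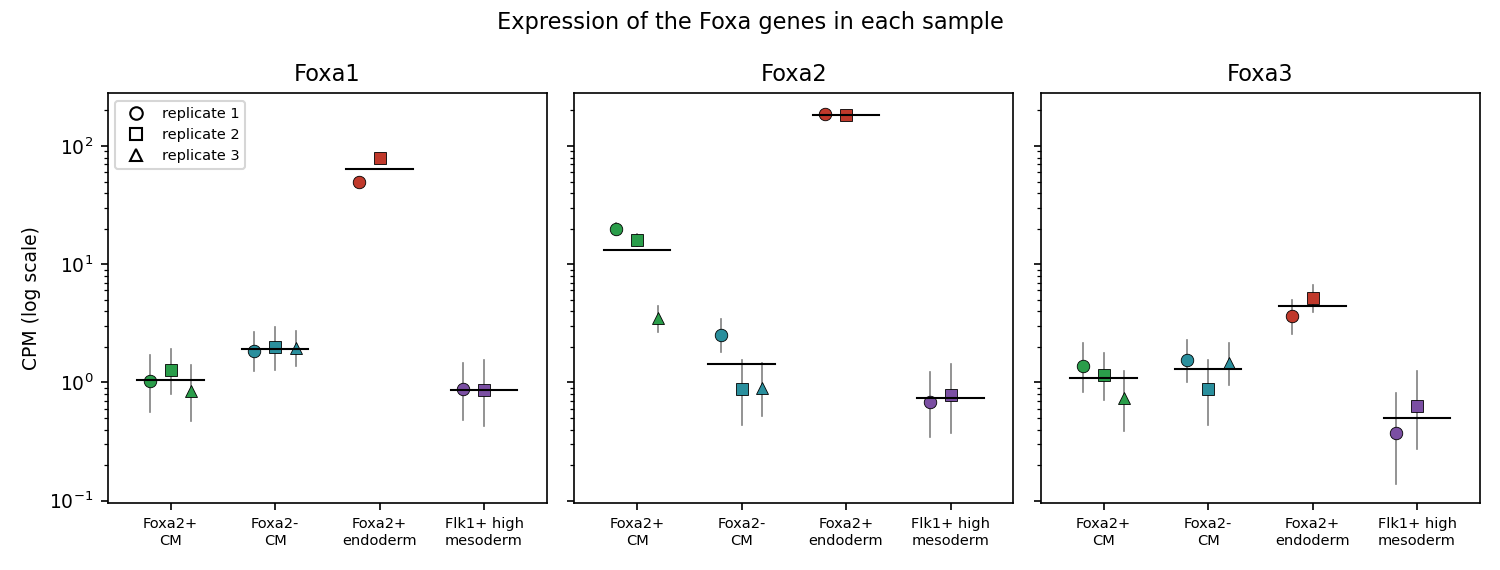
Level of Foxa1, Foxa2 and Foxa3 in each of the 10 samples, in CPM on a log axis, with the group mean as a horizontal line and the 95% Poisson interval of each sample as a grey bar. All 3 genes are highest in endoderm, Foxa2 separates the CM groups with replicate 3 of Foxa2+ CM at 3.49 CPM, and Foxa1 is at 0.845 to 1.27 CPM in Foxa2+ CM but 1.86 to 1.98 CPM in Foxa2- CM.

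The third Foxa2+ CM sample differed from the others of its group in more than Foxa2. Its endoderm markers summed to 164 CPM against 218 and 232 CPM, and its haemato-endothelial markers to 644 CPM against 490 and 503 CPM. The part of these differences in its Foxa2 level was not tested.

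Between the CM groups, Foxa2 was 9.03-fold higher where hCD4 was present, with a log2 fold change of 3.18 ± 0.69 (SE, 95% interval 1.59 to 4.76, edgeR quasi-likelihood test, Benjamini-Hochberg adjusted p = 0.0353). It was the only 1 of the 3 members that passed the test in this comparison, in which 3.81% of the 15284 genes tested were higher and 2.66% lower. As a check of the gate, this value depended on single samples. The adjusted p rose to 0.108 without Foxa2+ CM replicate 1, 0.130 without Foxa2+ CM replicate 2, 0.0665 without Foxa2- CM replicate 1 and 0.162 without Foxa2- CM replicate 2, with log2 fold changes from 2.74 to 3.85.

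Foxa1, the closest relative of Foxa2 in function, had lower values in Foxa2+ CM but did not pass the test. The Foxa2+ CM samples held 14, 22 and 15 reads, or 1.02, 1.27 and 0.845 CPM. The Foxa2- CM samples held 30, 25 and 35 reads, or 1.86, 1.98 and 1.97 CPM. Every Foxa2+ CM sample was below every Foxa2- CM sample, and the group means were 1.05 ± 0.214 and 1.94 ± 0.0709 CPM (SD, n = 3 each). How many of all genes separated the CM groups in this way is not given, so the separation is a description only. The log2 fold change was -0.88 ± 0.24 (SE), with a 95% interval from -1.43 to -0.33. The unadjusted p was 0.00602 in edgeR, but the adjusted p was 0.0736. Of 6 alternative settings, 1 gave a call, a replicate block (edgeR adjusted p = 0.0340). In the 6 fits that left out 1 sample, 0 calls were made.

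Markers of other cell types moved with the same split of CM. The 6 pluripotency markers summed to 51.3 to 57.4 CPM in the hCD4+ samples and to 82.5 to 123 CPM in the hCD4- samples, and 3 of 6 were lower with hCD4, among them Nanog (log2 -2.41, edgeR adjusted p = 0.00132). The 8 cardiac mesoderm markers summed to 937 to 1058 CPM with hCD4 and to 1130 to 1266 CPM without it. This sum includes Kdr and Pdgfra, which were part of the gate of both CM groups. They averaged 380 and 221 CPM with hCD4 and 421 and 286 CPM without it, and neither passed. The 2 called higher were Nkx2-5 (log2 1.11) and Tbx5 (1.76), and the 3 lower were Mesp1 (-3.10), Isl1 (-2.69) and Hand1 (-1.04). In this comparison 6.48% of all genes were called. The 5 neural ectoderm markers summed to 27.1 to 33.6 CPM with hCD4 and to 9.83 to 14.04 CPM without it, nearly all of it Sox3, the 1 marker of that list above the filter, which was higher (1.40, edgeR adjusted p = 0.00479). None of these 3 sums overlapped between the CM groups, and their part in the differences between the CM groups given here was not tested.

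Foxa3 showed no separation of the CM groups. It was counted 19, 20 and 13 times in Foxa2+ CM, or 1.39, 1.16 and 0.732 CPM. In Foxa2- CM it was counted 25, 11 and 26 times, or 1.55, 0.872 and 1.47 CPM. The groups overlapped, and the log2 fold change of -0.28 ± 0.33 (SE, edgeR adjusted p = 0.785) had a 95% interval from -1.05 to 0.49.

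In endoderm all 3 members were higher than in Foxa2+ CM, a comparison in which 18.3% of the 16180 genes tested were higher and 16.7% lower. Foxa1 was counted 538 and 946 times in endoderm, or 50.1 and 79.0 CPM. Foxa3 was counted 39 and 62 times, or 3.63 and 5.18 CPM. Both endoderm samples lay above every other sample for each of the 3 genes.

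The rise of Foxa1 over Foxa2+ CM was 61.2-fold (log2 5.94 ± 0.25, SE, edgeR adjusted p = 8.77e-07). That of Foxa2 was 14.1-fold (3.81 ± 0.55, edgeR adjusted p = 0.000705) and that of Foxa3 4.06-fold (2.02 ± 0.36, edgeR adjusted p = 0.00221). The 95% intervals of the log2 fold changes, 5.37 to 6.50 for Foxa1, 2.58 to 5.05 for Foxa2 and 1.22 to 2.82 for Foxa3, did not overlap between Foxa1 and the other two. No test of the difference between genes was made, and the Foxa2 locus was part of the gate of both groups compared here.

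Against Foxa2- CM the endoderm samples were also higher for all 3 members, where 16.1% of all genes tested were higher and 14% lower. Here Foxa2 had the largest log2 fold change of the family, 6.97 ± 0.67 (SE, edgeR adjusted p = 8.21e-05), followed by Foxa1 with 5.05 ± 0.24 (edgeR adjusted p = 2.4e-06) and Foxa3 with 1.75 ± 0.35 (edgeR adjusted p = 0.00522). The Foxa3 value lost its call without Foxa2+ endoderm replicate 2, at 1.45 and an adjusted p of 0.0523. This comparison and the one before share the endoderm samples.

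Flk1+ high mesoderm held the least of each member by group mean. Foxa1 was counted 14 and 11 times there, or 0.877 and 0.865 CPM, within the range of Foxa2+ CM and below all 3 Foxa2- CM samples. Foxa3 was counted 6 and 8 times, or 0.376 and 0.629 CPM, below all 6 CM samples. The Poisson interval for the lower of these, 0.138 to 0.818 CPM, shows how few reads carried that value.

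Against Foxa2+ CM, where 11.6% of all genes tested were higher and 11.2% lower, Foxa2 fell by 4.14 on the log2 scale (SE 0.83, edgeR adjusted p = 0.00739). Foxa1 gave -0.26 ± 0.31 (SE, edgeR adjusted p = 0.618, 95% interval -0.96 to 0.43) and Foxa3 gave -1.12 ± 0.45 (edgeR adjusted p = 0.109). The Flk1+ high values of Foxa3 lay below all 3 Foxa2+ CM samples, while those of Foxa1 lay among them.

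Against Foxa2- CM, where 11.3% of all genes tested were higher and 10.3% lower, Foxa1 was the member that passed, and it fell by 1.14 on the log2 scale (SE 0.29, edgeR adjusted p = 0.0225). The call was lost with an adjusted p of 0.0505 without Foxa2- CM replicate 2, 0.0876 without Flk1+ high mesoderm replicate 1, 0.0848 without Flk1+ high mesoderm replicate 2 and 0.0559 when only these groups entered the model. Foxa2 gave -0.98 ± 1.01 (edgeR adjusted p = 0.550) and Foxa3 gave -1.39 ± 0.45 (edgeR adjusted p = 0.0535, and 0.0442 without Foxa2- CM replicate 2). For neither did the samples of the groups overlap, but how often other genes did so is not given. For Foxa2 the nearest samples were Flk1+ high mesoderm replicate 2 (0.787 CPM) and Foxa2- CM replicate 2 (0.872 CPM). Their Poisson intervals, 0.377 to 1.45 CPM and 0.435 to 1.56 CPM, overlapped.

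The widest differences were between endoderm and Flk1+ high mesoderm, in which 16.4% of all genes tested were higher and 16.2% lower in endoderm. Foxa2 was higher by 7.95 ± 0.87 (log2, SE, edgeR adjusted p = 0.000168), Foxa1 by 6.20 ± 0.31 (edgeR adjusted p = 2.69e-06) and Foxa3 by 3.14 ± 0.45 (edgeR adjusted p = 0.000805). Over the 6 comparisons, 12 of the 18 tests of the members passed, and 9 of these were the tests that involved endoderm. The tally includes Foxa2, for which a pass is a check of the labels, since its locus was part of the gate. The called share of all genes tested ran from 6.48% between the CM groups to 35.0% in endoderm against Foxa2+ CM.

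**Figure D2:**
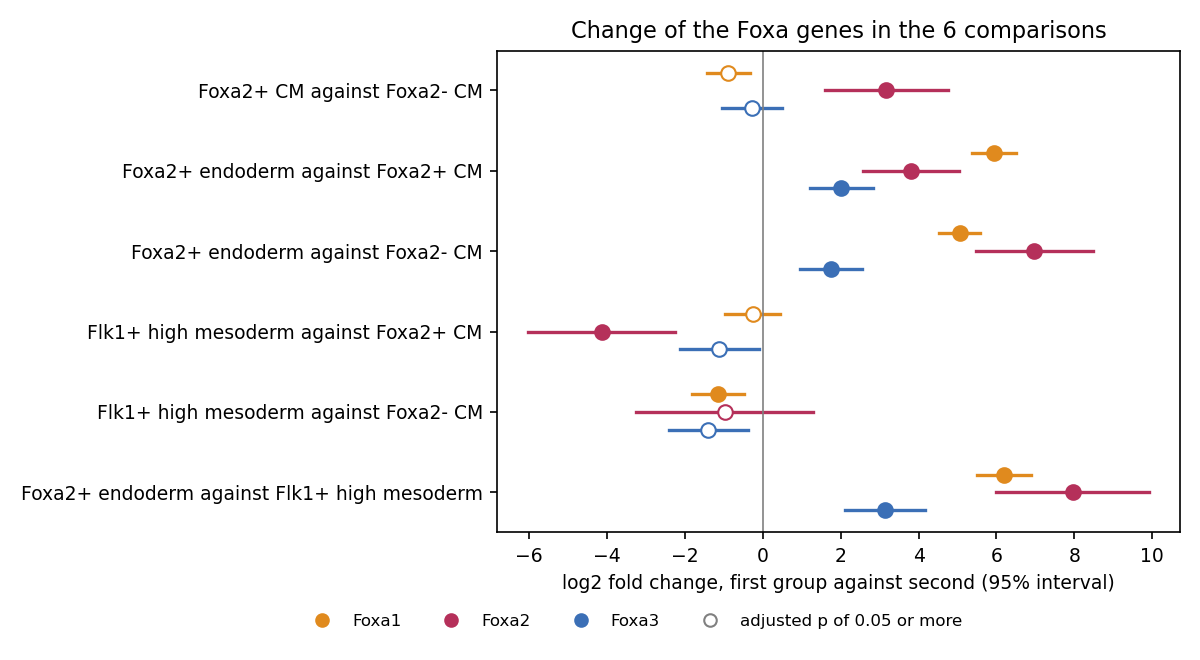
Log2 fold change of each Foxa gene in the 6 comparisons, first group against second, with 95% intervals from the edgeR fit and open circles where the adjusted p was 0.05 or more. The endoderm comparisons lie to the right of 0 for all 3 genes, while between the CM groups Foxa2 is at 3.18, Foxa1 at -0.88 and Foxa3 at -0.28.

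To compare the members with each other, CPM was divided by the length of the merged exons. On this scale Foxa2 averaged 77.6 CPM per kb in endoderm, Foxa1 19.4 and Foxa3 2.16. In Foxa2+ CM the averages were 5.56 for Foxa2, 0.536 for Foxa3 and 0.315 for Foxa1. In Foxa2- CM the averages were closer together, at 0.606 for Foxa2, 0.582 for Foxa1 and 0.636 for Foxa3, and in Flk1+ high mesoderm they were 0.311, 0.262 and 0.247.

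The summed level of the family was 95.1 and 103 CPM per kb in endoderm. It was 9.43, 7.71 and 2.09 in Foxa2+ CM, 2.39, 1.39 and 1.69 in Foxa2- CM, and 0.739 and 0.901 in Flk1+ high mesoderm. The third Foxa2+ CM sample therefore fell inside the range of Foxa2- CM by the sum, although its make-up differed.

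Foxa2 made up 89.5%, 87.7% and 70.6% of the family sum in the Foxa2+ CM samples, and 82.3% and 74.5% in endoderm. In Foxa2- CM it made up 44.8%, 26.4% and 22.5%, and in Flk1+ high mesoderm 39.4% and 36.8%. Since the sort used Foxa2, its high share in the hCD4+ groups follows from the gate in part, and no test was made. The hCD4+ groups did differ in the rest of the family. The share of Foxa1 was 15.8% and 23.0% in endoderm and 3.26%, 4.96% and 12.2% in Foxa2+ CM, while Foxa3 was 1.87% and 2.46% in endoderm and 7.22%, 7.37% and 17.2% in Foxa2+ CM.

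Read as a ratio per kb, Foxa2 exceeded Foxa1 by 27.5-, 17.7- and 5.80-fold in the Foxa2+ CM samples and by 5.20- and 3.24-fold in endoderm. The lowest Foxa2+ CM ratio lay above both endoderm ratios. It rests on 15 Foxa1 reads, or 0.845 CPM with a Poisson interval of 0.473 to 1.39 CPM. Counting error was not carried into the ratios, so whether 5.80 differs from 5.20 was not tested. The Foxa2 locus was also part of the gate. In Foxa2- CM the ratios were 1.92, 0.618 and 0.642, and in Flk1+ high mesoderm 1.10 and 1.28.

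**Figure D3:**
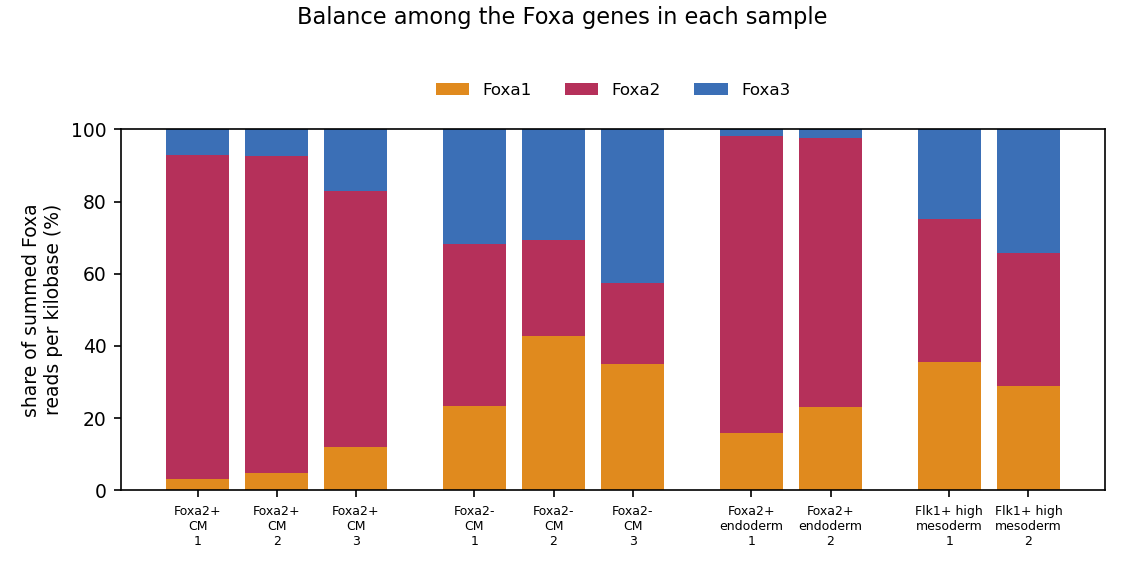
Share of each Foxa gene in the summed reads per kilobase of the family, in percent, 1 bar for each sample. Foxa2 takes 70.6% or more in every Foxa2+ CM and endoderm sample and 44.8% or less in the others, and Foxa1 takes more of the sum in endoderm than in Foxa2+ CM.

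Among the 44 forkhead genes, Foxa2 was the second most abundant per kb in both endoderm samples, with 15.1% and 13.6% of all forkhead signal. It came after Foxh1, the Smad partner in Nodal signalling, at a mean of 80.8 CPM per kb. In the Foxa2+ CM samples Foxa2 ranked 12th, 13th and 18th, and in the Foxa2- CM samples 18th, 21st and 21st. Foxa1 ranked 11th and 10th in endoderm. Foxa3 did not rank above 19th in any sample.

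Of the 41 other forkhead genes, 22 were tested between the CM groups and 19 were below the count filter. Foxq1 (log2 1.35 ± 0.26, SE, edgeR adjusted p = 0.0185) and Foxf2 (1.20 ± 0.20, edgeR adjusted p = 0.0113), a factor of visceral mesenchyme, were higher in Foxa2+ CM. Foxc1 (-1.86 ± 0.34, edgeR adjusted p = 0.0176), a factor of mesoderm and the outflow tract, was lower. The median log2 fold change of the list was 0.08 against 0.00 over all genes tested, and 13.6% of the list was called against 6.48% of all genes. This count of 3 was 0 without Foxa2+ CM replicate 2 or Foxa2- CM replicate 2, 1 without Foxa2+ CM replicate 1 and 5 without Foxa2- CM replicate 3. Foxf1, the sister gene of Foxf2, averaged 48.3 and 105 CPM in the hCD4+ and hCD4- groups but did not pass (-1.11, edgeR adjusted p = 0.122).

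In endoderm against Foxa2+ CM, 29 other forkhead genes were tested, of which 11 were higher and 7 lower. Foxj1, the regulator of motile cilia, averaged 56.0 CPM in endoderm and 0.519 CPM in Foxa2+ CM. Foxd3, a gene of pluripotent cells and neural crest, was at 46.3 and 53.6 CPM in endoderm and at 0 reads in all 3 Foxa2+ CM samples. Foxo1 (log2 2.16), Foxp1 (0.64), Foxp2 (2.33) and Foxr2 (4.47, on 3 to 6 reads in each Foxa2+ CM sample) were also higher, and Foxb1 was at 6.89 and 1.84 CPM in endoderm against at most 1 read in a Foxa2+ CM sample. Foxf1 (-5.99), Foxf2 (-4.01), Foxn2 (-0.56), Foxj3 (-0.33), Foxc2 (-2.39) and Foxk1 (-0.50) were lower, as was Foxd1, with 1 read in each endoderm sample against 12 to 16 in Foxa2+ CM. The list's median was 0.07 against 0.01 over all genes, with 62.1% of the list called against 35.0% of all genes. Of the same list, 22 genes passed the count filter between the CM groups and 29 here, so some entered through other groups. Foxj1, with 7 to 10 reads in a Foxa2+ CM sample, passed through endoderm. The shares of the list in the endoderm comparisons are therefore a description and not a test of the list. Against Flk1+ high mesoderm 11 were higher and 4 lower in endoderm, or 51.7% of the list against 32.6% of all genes.

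**Figure D4:**
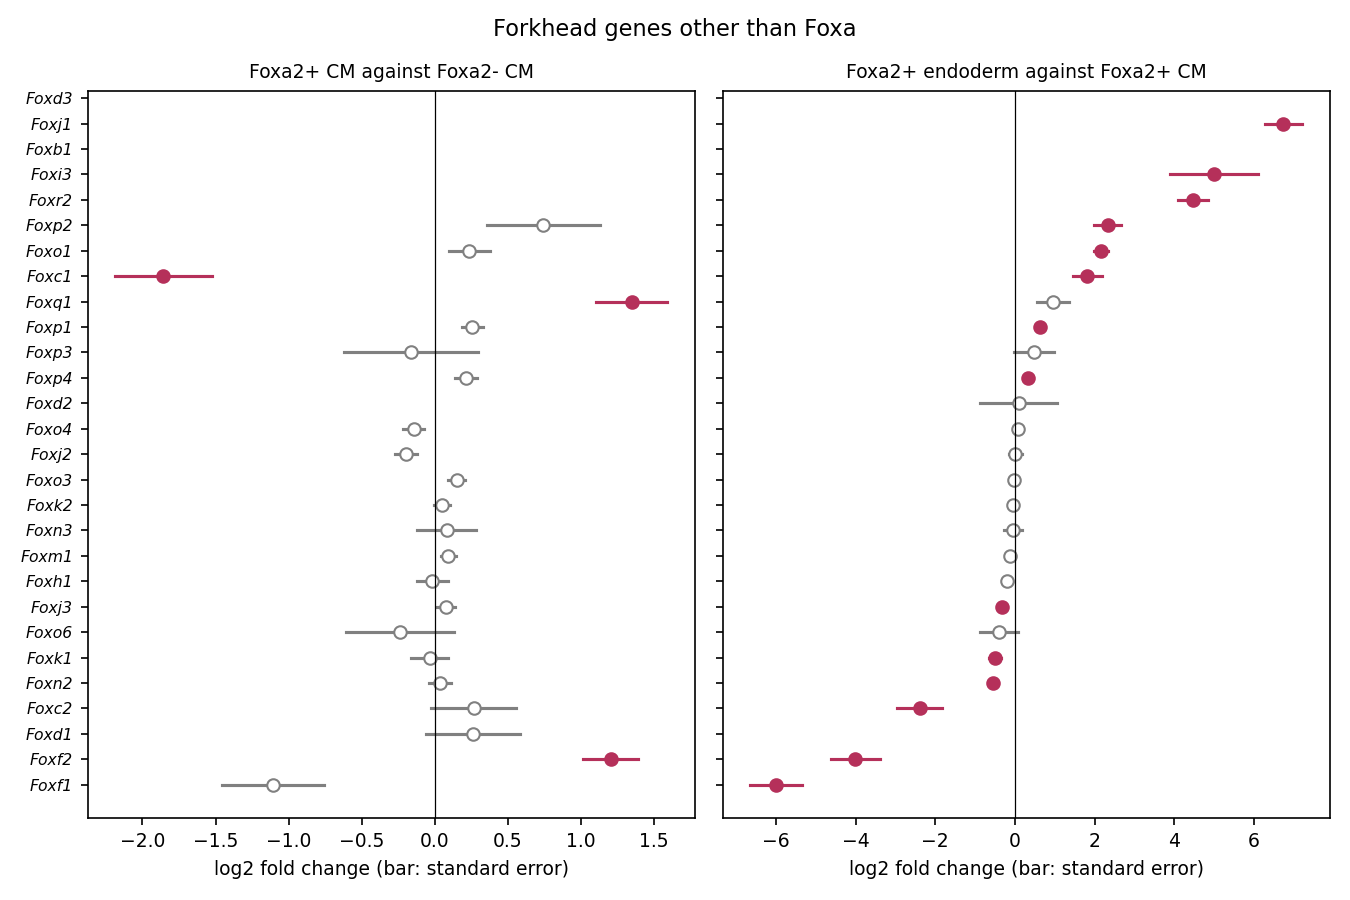
Log2 fold change of forkhead genes other than Foxa in Foxa2+ CM against Foxa2- CM (left) and in Foxa2+ endoderm against Foxa2+ CM (right), with standard errors, filled where the adjusted p was under 0.05. Foxd3, Foxb1 and Foxd1 have no point on the right because a group held at most 3 reads in each sample, and genes without a point on the left were below the count filter there. Foxf2 and Foxq1 are higher and Foxc1 lower in Foxa2+ CM.

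Foxa2 is induced by Nodal signalling, for which Activin A substitutes in culture. Of 12 genes of this pathway, 11 were tested between the CM groups and 0 passed in edgeR, where 6.48% of all genes did, with 3 at an unadjusted p under 0.05 and 2 called by DESeq2. Nodal averaged 38.2 and 30.9 CPM with and without hCD4 (log2 0.31, edgeR adjusted p = 0.0999). Its co-receptor Tdgf1 was at 44.5, 43.5 and 27.7 CPM against 98.4, 108 and 51.7 CPM (-1.15, edgeR adjusted p = 0.0529). Eomes, the T-box factor of streak and endoderm, differed by 0.03 (edgeR adjusted p = 0.959). The list's median was -0.02, against 0.00 over all genes.

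In endoderm, 5 of the 12 pathway genes passed against Foxa2+ CM, or 41.7% against 35.0% of all genes, which is near the background. Of this list, 11 genes passed the count filter between the CM groups and 12 here. The share is therefore a description and not a test of the list. Tdgf1 (log2 1.85, edgeR adjusted p = 0.00645), Smad3 (0.78) and Smad4 (0.34) were higher and Smad2 (-0.25) was lower. Gdf3, a Nodal-related ligand, was also higher, at 1.49 and 4.35 CPM in endoderm against at most 0.219 CPM in Foxa2+ CM. It passed the filter through samples other than those of Foxa2+ CM. The count was 3 without Foxa2+ CM replicate 2 or Foxa2+ endoderm replicate 2, and 2 without Foxa2+ endoderm replicate 1. Against Flk1+ high mesoderm, Tdgf1 (3.28), Mixl1 (1.41), Gdf3, Eomes (1.40) and Nodal (3.24) were higher and Acvr1b (-0.58) was lower.

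Among 13 factors that act with Foxa proteins or with them in endoderm, 12 were tested between the CM groups and 3 were higher in Foxa2+ CM. Sox17, which specifies endoderm and also marks endothelium, was at 27.7, 23.3 and 19.8 CPM in the hCD4+ samples against 4.64, 3.17 and 8.57 CPM in the hCD4- samples (log2 2.09 ± 0.33, SE, edgeR adjusted p = 0.0118). For Sox17, as for Foxa2, the third Foxa2+ CM sample was the lowest of its group and still above all Foxa2- CM samples. Tle2, a Groucho-type corepressor, rose by 0.82 (edgeR adjusted p = 0.0107).

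The median log2 fold change of these factors was 0.16, and 25.0% were called against 6.48% of all genes. The count was 0 without Foxa2+ CM replicate 2, 1 without Foxa2- CM replicate 1 or replicate 2, and 5 without Foxa2+ CM replicate 3. Beside this, the summed endoderm markers, of which Sox17 is one, ranged from 164 to 232 CPM with hCD4 and from 144 to 200 CPM without. Of the 10 endoderm markers, 9 were tested between the CM groups and Sox17 was the 1 that passed. The levels of the others in CM were mixed. Cer1, a marker of anterior endoderm, averaged 0.804 and 0.881 CPM with and without hCD4 against 229 CPM in endoderm, whereas Gsc averaged 50.7 and 42.5 CPM against 92.0 CPM and Epcam 29.6 and 32.6 CPM against 137 CPM.

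In endoderm against Foxa2+ CM, Sox17 (log2 2.58), Otx2 (2.68), Lhx1 (3.47) and Tle4 (0.62) were among the factors that were higher. Tle3 (-0.36) and Gata4 (-1.52), a pioneer factor shared by heart and endoderm, were lower. Gata6 differed by 0.09 (edgeR adjusted p = 0.709). Against Flk1+ high mesoderm 10 of 12 were higher in endoderm, with Otx2 (5.64) and Gsc (4.84) among them, in a comparison where 16.4% of all genes were higher.

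Of 20 genes described elsewhere as targets of Foxa proteins, mostly in liver and lung, 13 were below the filter in CM and 11 in the model of all samples. These shares, 65.0% and 55.0%, were near those of all gene rows, 60.7% and 58.4%. In CM 1 of the 7 tested passed, or 14.3% against 6.48% of all genes, and in endoderm against Foxa2+ CM 4 of 9, or 44.4% against 35.0%. More of the list passed the filter in the model of all samples than in CM. These shares are therefore a description and not a test of the list. Onecut1, a liver and pancreas factor, passed between the CM groups (log2 1.58, edgeR adjusted p = 0.0388). It was at 1.46, 2.49 and 1.41 CPM with hCD4 against 0.495, 0.476 and 0.789 CPM without. At these levels it passed the count filter through the Foxa2+ CM samples, so its call is not a test of the list. That call was lost, and no other gene of the list passed, without Foxa2+ CM replicate 1, Foxa2+ CM replicate 2, Foxa2- CM replicate 1 or Foxa2- CM replicate 2, while 4 passed without Foxa2- CM replicate 3. Onecut1 was lower in endoderm, at 0 and 0.167 CPM.

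Cdh1, the epithelial cadherin, was the target with the clearest change in endoderm, at 544 and 492 CPM against 9.13 to 13.5 CPM in Foxa2+ CM (log2 5.51, edgeR adjusted p = 8.86e-08). Hnf4a (3.57, edgeR adjusted p = 0.0145) was at 6.05 and 27.5 CPM in endoderm, and Cebpa (2.03, edgeR adjusted p = 0.00557) at 1.95 and 2.76 CPM. Alb, G6pc, Igfbp1 and Scgb1a1 had 0 reads in all samples. Shh, a target in the node and notochord, was at 0.0931 and 0.919 CPM in endoderm.

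The genes whose levels followed the members most closely over the 10 samples were found among 12134 genes by Pearson correlation of log2 CPM. These values are a description, since the 2 endoderm samples set them to a large extent. For Foxa1 they were Cdh1 (r = 0.993), Lypd6b (0.993), Mfap3l (0.991), Thpo (0.990) and Fgf17 (0.990). As for Foxa1, each Foxa2+ CM sample was below each Foxa2- CM sample for Cdh1. The values were 11.5, 13.5 and 9.13 CPM with hCD4 against 16.6, 16.5 and 16.7 CPM without. This difference did not pass (log2 -0.54, edgeR adjusted p = 0.0944), and how often other genes separated the groups in this way is not given.

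For Foxa2 they included Shc4 (r = 0.985), Ttll1 (0.978), Creld1 (0.977) and Gstt2 (0.975). Shc4, which encodes a signalling adaptor, was at 22.3, 21.5 and 13.9 CPM in CM with hCD4, 10.9, 6.58 and 5.64 CPM in CM without it, 65.4 and 65.3 CPM in endoderm and 9.21 and 6.45 CPM in Flk1+ high mesoderm. Its lowest Foxa2+ CM and highest Foxa2- CM samples were the same ones as for Foxa2. For Foxa3 they were Tdrd7 (r = 0.973), Nnat (0.956), 1700030J22Rik (0.954), Lbh (0.952) and Slc9a3r1 (0.952).

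Neighbours of the Foxa genes within 100 kb were examined next. The reads were counted without a strand-marking kit, so overlapping genes on opposite strands cannot be told apart. Of 7 genes annotated near Foxa1, 2 had at least 10 counts in some sample. Ttc6, which starts 17197 bases upstream of Foxa1 on the opposite strand, was at 13.6 and 14.7 CPM in endoderm, 0.876, 1.21 and 0.451 CPM in CM with hCD4, 2.78, 2.22 and 1.63 CPM in CM without it and 1.19 and 0.157 CPM in Flk1+ high mesoderm. Its order over the groups was that of Foxa1, with a log2 fold change of 4.05 in endoderm against Foxa2+ CM (edgeR adjusted p = 0.000415) and -1.37 between the CM groups (edgeR adjusted p = 0.0745). Mipol1, 43429 bases downstream, was at 25.6 to 41.9 CPM in all samples and did not pass between endoderm and Foxa2+ CM (-0.26, edgeR adjusted p = 0.0814). It was higher in Flk1+ high mesoderm than in Foxa2+ CM (0.36, edgeR adjusted p = 0.0316) and Foxa2- CM (0.42, edgeR adjusted p = 0.0169), and lower in endoderm than in Flk1+ high mesoderm (-0.61, edgeR adjusted p = 0.00273).

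Near Foxa2, 2 of 3 annotated genes reached 10 counts. The lincRNA 9030622O22Rik, which lies 2674 bases downstream of Foxa2 on the same strand, was at 4.10 and 8.61 CPM in endoderm, 0.365, 0.116 and 0.113 CPM in Foxa2+ CM, at most 0.124 CPM in Foxa2- CM and 0 in Flk1+ high mesoderm. These levels stand for 44 and 103 reads in endoderm and 2 to 5 reads in a Foxa2+ CM sample, so it passed the filter through endoderm alone and no fold is given. It was too low to be tested between the CM groups. The pseudogene Gm14108, 24377 bases upstream, was at 0.584, 0.578 and 0.113 CPM in Foxa2+ CM, but at 0 reads in Foxa2- CM, below the filter.

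The Foxa3 neighbourhood is denser, and 12 of its 16 annotated genes reached 10 counts. Sympk, a polyadenylation factor that starts 839 bases from Foxa3 on the opposite strand, was at 300 to 334 CPM in every sample and differed by 0.04 between endoderm and Foxa2+ CM (log2, edgeR adjusted p = 0.686), where Foxa3 rose by 2.02. Mypop (-1.78), its antisense partner Mypopos (-2.39), the overlapping Gm10676 (-1.77) and Dmpk (-0.44) were lower there. Nova2 was highest in Flk1+ high mesoderm, at 14.9 and 18.9 CPM against 0.742 to 3.07 CPM elsewhere. Six5, Fbxo46, Irf2bp1, Dmwd, Rsph6a and Gm4969 did not pass between endoderm and Foxa2+ CM.

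**Figure D5:**
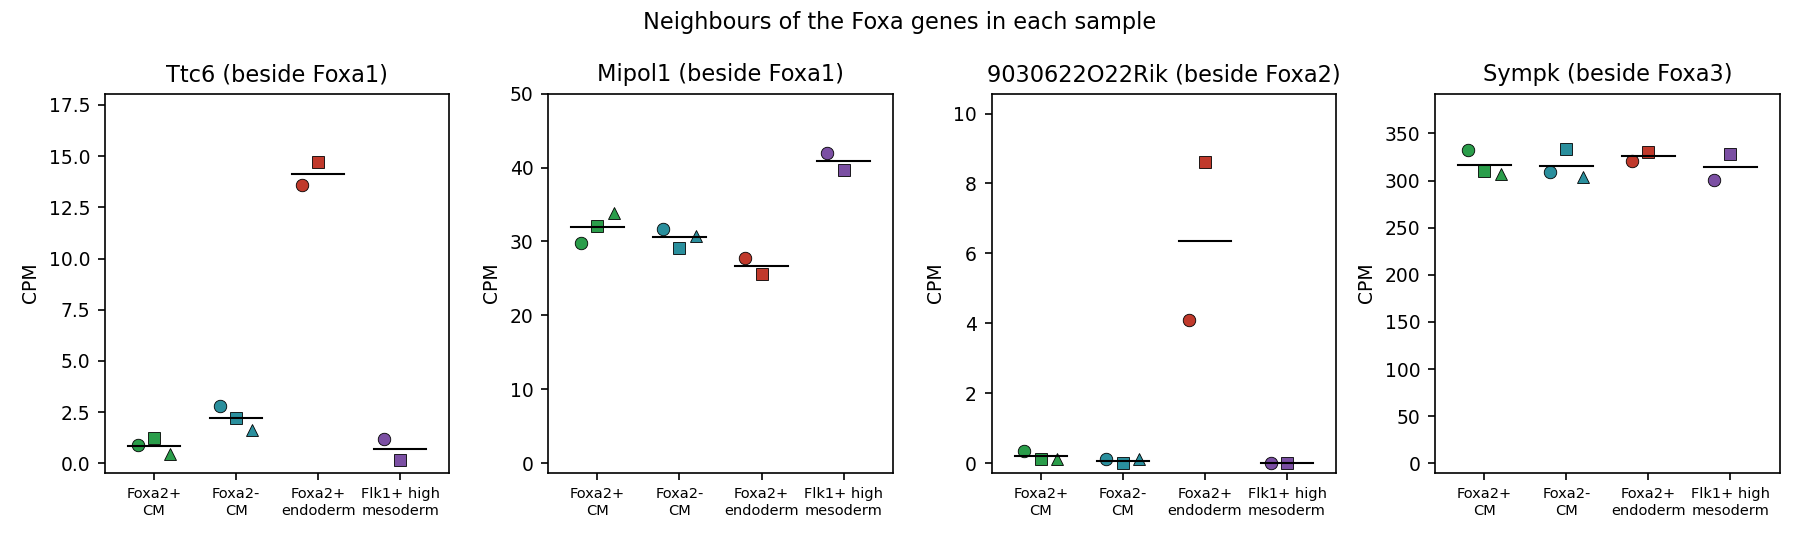
CPM of 4 neighbours of the Foxa genes in each sample, with symbols for replicates as in the plot of the members' levels and the group mean as a line. Ttc6 and 9030622O22Rik are highest in endoderm, like the adjacent Foxa1 and Foxa2, while Mipol1 lies between 25.6 and 41.9 CPM and Sympk, beside Foxa3, between 300 and 334 CPM.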

How the data were processed

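The authors made TruSeq v2 libraries from sorted cells, sequenced 50-base single reads, aligned them to mm10 with STAR (2.5.0a), removed duplicate reads with Picard and counted with HTSeq (0.6.0). The deposited values are whole-number counts per Ensembl gene, not normalized. Removing duplicates limits the counts of highly expressed genes. Reads counted on genes were 72.2% to 80.5% of those listed, and 2.18% to 2.37% were ambiguous. The rows that name no gene were left out.

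From these counts, CPM and tests were computed with edgeR 4.0.16 in R 4.3.3 (TMM, default expression filter, quasi-likelihood test, Benjamini-Hochberg adjustment at 0.05 over all genes tested). The CM groups were fitted alone and the other comparisons used all 10 samples in 1 model. DESeq2 1.42.0, other size factors, other filters, a replicate block and leaving out each sample were tried as alternatives. The fit was also run on simulated counts, and the outcome is not given here. Of 38924 gene rows, 37607 had a GENCODE M21 symbol. Promoter sequences are from RefSeq (GRCm38.p6).

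The genes named are the 3 members, the members of 4 fixed lists that passed (up to 8 in each direction by adjusted p), neighbours within 100 kb with at least 10 counts and, for each member, the 5 genes of highest correlation with a mean of at least 50 counts (prior count 2). Genes outside this rule, such as Foxf1 and Nodal in CM, were chosen after their values were seen. Foxh1, Foxj1, Sox17, Gsc and Cdh1 each stand in more than 1 list. Some genes that the rule selects are counted in the lists but not reported here by name. The members and lists were chosen with earlier results of these data known.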

Additional observations from a re-analysis of the deposited data

How the results depend on the processing

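Of 198 alternative values for the members, 187 kept their direction and their side of the threshold, and 0 reversed. The replicate numbers were not treated as pairs, because the labels do not give pairs and not every sample matched its own number best. The deviations of same-numbered CM samples correlated by 0.482, 0.0865 and 0.581. Samples numbered 1 and 3 matched their own number best, while Foxa2+ CM replicate 2 correlated by 0.0970 with Foxa2- CM replicate 1. These values cannot decide whether same-numbered CM samples came from shared cultures. With the replicate block, Foxa1 between the CM groups was -0.90 and passed (adjusted p = 0.0340), and the counts of genes called there were 5 forkhead genes, 4 inducers, 7 partners and 3 targets, while the share of all genes called rose from 6.48% to 16.7%. Foxa1 in Flk1+ high mesoderm against Foxa2- CM was -1.15 with only these groups. Leaving out 1 sample gave -1.19 to -1.13 for that value, 2.74 to 3.85 for Foxa2 between the CM groups, 1.45 to 1.95 for Foxa3 in endoderm against Foxa2- CM and -1.80 to -1.05 for Foxa3 in Flk1+ high mesoderm against Foxa2- CM.

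Between the CM groups, DESeq2 called 2 inducers and 5 partners, and without a filter 2 inducers, 6 partners and 2 targets were called. Without a filter 7 targets were called in endoderm against Foxa2+ CM. Leaving out 1 sample, the counts between the CM groups were 0 to 5 forkhead genes, 0 to 2 inducers, 0 to 5 partners and 0 to 4 targets. In endoderm the range was 2 to 5 inducers against Foxa2+ CM and 1 to 4 targets against Flk1+ high mesoderm. With coding length, endoderm held 25.0% Foxa1 and 72.7% Foxa2, and Flk1+ high mesoderm 38.6% and 32.7%. The cause of these changes was not tested. In CM and Flk1+ high mesoderm, Foxa1 and Foxa3 rest on 6 to 35 reads per sample, which limits what could be detected.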
